A study of Arabidopsis thaliana with 8 samples.

Results

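The entries described here lie in the pericentromere of Arabidopsis thaliana chromosome 3, the block of repeat-rich sequence on both sides of the centromere. They were chosen by position alone, as the annotated intervals on chromosome 3 (TAIR10) with a midpoint from 11 to 17 Mb, less 2 entries that the choice left out, and they number 1514 of the 34133 entries in the deposited tables. The entries at the edges of the window were AT3G28990 inside its start and AT3G46260 inside its end, with AT3G28985 and AT3G46270 next to them outside. Their log2 ratios in the 6 tables were 0 for AT3G28985 and AT3G28990, lay between -0.07 and 0 for AT3G46260 and lay between -0.48 and 0.35 for AT3G46270.

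Transcript levels came from sequencing of oligo(dT)-selected RNA of whole 10-day-old seedlings in the Col-0 background, grown on MS plates in long days. The groups were wild type (WT, 2 libraries), mom1 (2 libraries), and 1 library each labelled pial1/2, pial2, mom1pial2 and nrpe1, all with no treatment, and the labels name no alleles. The series asks which transcripts these mutants gain or lose against WT. Each of the 6 deposited tables sets 1 mutant library against 1 WT library in FPKM, the fragments counted per kilobase of transcript and scaled to the mapped total. The mom1 replicate 1, nrpe1 and pial1/2 tables were made against WT replicate 1. Those of mom1 replicate 2, pial2 and mom1pial2 were made against WT replicate 2, so values within each of these sets of tables share a control.

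Pericentromeric DNA in plants is packed into heterochromatin, carries dense DNA methylation and holds many transposons and their remains, most of which are kept silent. MOM1 is a nuclear protein needed for this silencing that can act without large changes in DNA methylation. PIAL1 and PIAL2 resemble SUMO E3 ligases and are described in the series title as partners of MOM1, and NRPE1 forms the biggest part of RNA polymerase V, an enzyme that works in RNA-directed DNA methylation.

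A group of related pseudogenes is shown in sequence because similar copies differed in level in mom1. The stretches printed here are the same aligned 120 bases of 6 copies, from TAIR10.1, the RefSeq assembly whose chromosome 3 coordinates match those of the tables. They are written 5′ to 3′ on the strand of AT3G42716, and capitals mark bases that differ from AT3G42716. The first 4 copies, AT3G42716 (chr3:14800447-14800566, plus strand), AT3G30620 (chr3:12190453-12190572, minus strand), AT3G33072 (chr3:13632838-13632957, minus strand) and AT3G43862 (chr3:15716144-15716263, minus strand), were at least 2-fold higher than WT in a mom1 table. The last 2, AT3G42445.1 (chr3:14582126-14582245, minus strand) and AT3G32897 (chr3:13437363-13437482, minus strand), were not.
AT3G42716: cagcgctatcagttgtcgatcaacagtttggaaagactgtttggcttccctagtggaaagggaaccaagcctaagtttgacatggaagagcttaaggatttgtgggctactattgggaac
AT3G30620: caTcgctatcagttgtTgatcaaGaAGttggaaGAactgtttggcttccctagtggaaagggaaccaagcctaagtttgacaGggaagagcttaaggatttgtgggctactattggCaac
AT3G33072: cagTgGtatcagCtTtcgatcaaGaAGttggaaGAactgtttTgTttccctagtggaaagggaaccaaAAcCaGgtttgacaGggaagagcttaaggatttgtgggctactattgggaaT
AT3G43862: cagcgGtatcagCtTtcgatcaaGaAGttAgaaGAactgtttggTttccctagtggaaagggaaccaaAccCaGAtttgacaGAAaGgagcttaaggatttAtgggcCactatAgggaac
AT3G42445.1: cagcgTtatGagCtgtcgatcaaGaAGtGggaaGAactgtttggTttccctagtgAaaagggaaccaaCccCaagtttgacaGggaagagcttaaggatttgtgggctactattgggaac
AT3G32897: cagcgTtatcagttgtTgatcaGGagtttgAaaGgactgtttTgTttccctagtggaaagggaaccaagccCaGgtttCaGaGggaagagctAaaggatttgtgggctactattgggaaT
In this stretch the higher copies AT3G30620, AT3G33072 and AT3G43862 differed from AT3G42716 at 9, 17 and 21 bases. The low copies AT3G42445.1 and AT3G32897 differed at 14 and 15 bases. Among the 4 higher copies the mom1 replicate 1 level was lower with more differences, an order that replicate 2 did not have. The 5 other low copies differed at 17 to 20 bases.

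One further sequence is shown because a large ratio rests on it. AT3G29633 is annotated as protein coding, and its interval in the tables is a single open reading frame of 96 bases (chr3:11452942-11453037, minus strand, TAIR10.1), printed with its start and stop codons in capitals.
AT3G29633: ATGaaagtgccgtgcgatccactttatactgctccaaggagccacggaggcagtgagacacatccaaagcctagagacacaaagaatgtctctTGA

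The entries were of 2 kinds, 1121 whose identifier is a plain locus name and 393 whose identifier ends in a transcript suffix such as AT3G42719.1. All 393 entries with a suffix are annotated as pseudogenes, a class that in this annotation also takes in transposon remains. The 1121 without one comprise 499 protein-coding genes, 486 pseudogenes, 88 transcribed pseudogenes, 34 not in the annotation and 14 of other kinds. Of the 1514 entries, 783 were listed at 0 in all libraries and 216 reached 1 FPKM in both WT libraries. There were 305 entries that share their interval with another member, so the authors' quantification divides fragments between identifiers there.

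Facts of the whole series bear on these values as follows. MOM1 lay at 6.10 and 4.90 FPKM in WT replicates 1 and 2 and at 1.61, 1.15 and 1.29 in mom1 replicates 1 and 2 and mom1pial2, NRPE1 at 4.61 in WT and 1.16 in nrpe1, and PIAL2 at 5.52 and 5.53 in WT replicate 2 in the tables where pial2 and mom1pial2 were at 1.96 and 2.13. In the library labelled pial1/2, PIAL1 was at 11.3 against 11.7 FPKM in WT and PIAL2 at 4.79 against 6.47, so these levels do not check that label. The tables hold no counts, so depth in fragments is unknown. By the steps between low values, 1 fragment in mom1 replicate 1 was worth 0.666 of that in its WT library, which makes it the deeper of that pair, and the factor lay between 1 and 1.13 in the other 5 tables. The WT libraries differed from each other by at least 2-fold at 17.6% of the 244 entries of the window at 1 FPKM or more in either, where over all such entries 15.4% did. Nothing in the labels says that replicates came from separate plantings, so p-values measure the spread between these samples, which may be technical.

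Ratios are given as log2((mutant + 1)/(WT + 1)) of FPKM within a table, so a value of 1 or more is called 2-fold higher and a value of -1 or less 2-fold lower, and the change of low entries is understated. For mom1, the 2 ratios were tested with limma over all 20517 entries that reached 1 FPKM in at least 1 of the 4 libraries, with Benjamini-Hochberg adjustment over all of them. Of the 1514 entries, 281 met that minimum, 37 of them through mom1 only, and such entries had to differ. In mom1, 6 of the 281 rose and 0 fell at an adjusted p below 0.05, where over all entries 0.0877% rose and 0% fell. At an unadjusted p below 0.05 limma had 42 entries of the window higher and 9 lower, 14.9% and 3.20% of the 281, beside 2.76% and 3.32% of all entries tested. The lower share was thus near that of all entries, and the higher count includes entries that had to be higher. The 6 that rose were AT3G29639, AT3G29633, AT3G42353, AT3G30843, AT3G42719.1 and AT3G42716, and 4 of them are pseudogenes. All but AT3G29639, 5 of the 6, were at 0.233 FPKM or less in WT and met the minimum through mom1 only, so their calls come from entries that had to be higher. With no filter on low values, or with the libraries compared without pairing within tables, limma called 0 of them, and with a pseudocount of 0.1 FPKM it did not call AT3G42353, AT3G42716 and AT3G42719.1.

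AT3G29639, annotated as coding an uncharacterized protein at 11478732 to 11479749, had the highest mean ratio in mom1. Its level was 1.55 FPKM in WT replicate 1, against 219.8 in mom1 replicate 1, 179 in pial1/2 and 30.6 in nrpe1. In the other set of tables it was 2.10 in WT replicate 2, against 358 in mom1 replicate 2, 11.8 in pial2 and 322 in mom1pial2. Every mutant library exceeded both WT libraries, with pial2 and nrpe1 well below the other 4. The mean log2 ratio in mom1 was 6.65 ± 0.30 (SD, n = 2; limma adjusted p = 0.0227). It was the single entry of the window that was 2-fold higher in all 6 tables.

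AT3G42353, a pseudogene at 14497056 to 14497541, was at 0.197 FPKM in WT replicate 1 and at 95.01 in mom1 replicate 1, 19.7 in pial1/2 and 0.0985 in nrpe1. With WT replicate 2 at 0.233, it was at 64.3 in mom1 replicate 2, 0 in pial2 and 65.2 in mom1pial2. The libraries split into a high set, both mom1 libraries, mom1pial2 and, lower, pial1/2, and a low set of WT, pial2 and nrpe1. Its mean log2 ratio in mom1 was 6.03 ± 0.42 (SD, n = 2; limma adjusted p = 0.0257).

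AT3G42716 and AT3G42719.1 are pseudogenes that lie next to each other, within 14799890 to 14804201. AT3G42716 was at 0.0484 FPKM in WT replicate 1, 16.8 in mom1 replicate 1, 6.25 in pial1/2 and 0.0484 in nrpe1, and at 0.0939 in WT replicate 2, 14.1 in mom1 replicate 2, 0.0202 in pial2 and 17.8 in mom1pial2. AT3G42719.1 was listed at 0 in WT replicate 1 and nrpe1, at 20.3 in mom1 replicate 1 and 6.29 in pial1/2, and at 0.0705 in WT replicate 2, 20.7 in mom1 replicate 2, 0 in pial2 and 28.3 in mom1pial2. Both had the same split as AT3G42353, with nrpe1 and pial2 at the WT level. Their mean log2 ratios in mom1 were 3.93 ± 0.21 and 4.37 ± 0.05 (SD, n = 2; limma adjusted p = 0.0257 and 0.0227).

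AT3G30843, a pseudogene at 12607271 to 12608250, was below 0.001 FPKM in both WT libraries. It was at 29.3 in mom1 replicate 1, 19.0 in pial1/2 and 0.537 in nrpe1, and at 24.4 in mom1 replicate 2, 0.540 in pial2 and 31.1 in mom1pial2. Its mean log2 ratio in mom1 was 4.79 ± 0.18 (SD, n = 2; limma adjusted p = 0.0227). The entry AT3G30843.1 has the same interval and was at 2.02 and 1.49 FPKM in mom1 replicates 1 and 2, against 0.0381 and 0.0445 in WT, so the split of fragments between the 2 identifiers is the authors' estimate. In the authors' deposited tables AT3G30843 has a q-value that rounds to 1 in all 6 comparisons. Only 61.7% of its stretches of 50 bases occur once in the genome, the lowest share among the entries 2-fold higher in both mom1 tables, of which 13 of 20 had over 90%.

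AT3G29633, whose reading frame is printed above, was listed at 0 in both WT libraries, nrpe1 and pial2, and at 50.2, 88.5, 76.6 and 192 FPKM in mom1 replicates 1 and 2, pial1/2 and mom1pial2. Its mean log2 ratio in mom1 was 6.08 ± 0.57 (SD, n = 2; limma adjusted p = 0.0394). The number of fragments behind these levels is unknown. Among the 21 entries within 2% of its length, 2 to 5 were above 0 in each of these mutant libraries. Its value was 4 times the lowest of those above 0 in mom1 replicate 1 and 1.33 times it in pial1/2. In mom1 replicate 2 and mom1pial2 its value was itself the lowest above 0. In the authors' deposited tables its q-values lay between 0.525 and 0.967 where it was tested.

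**Figure D1:**
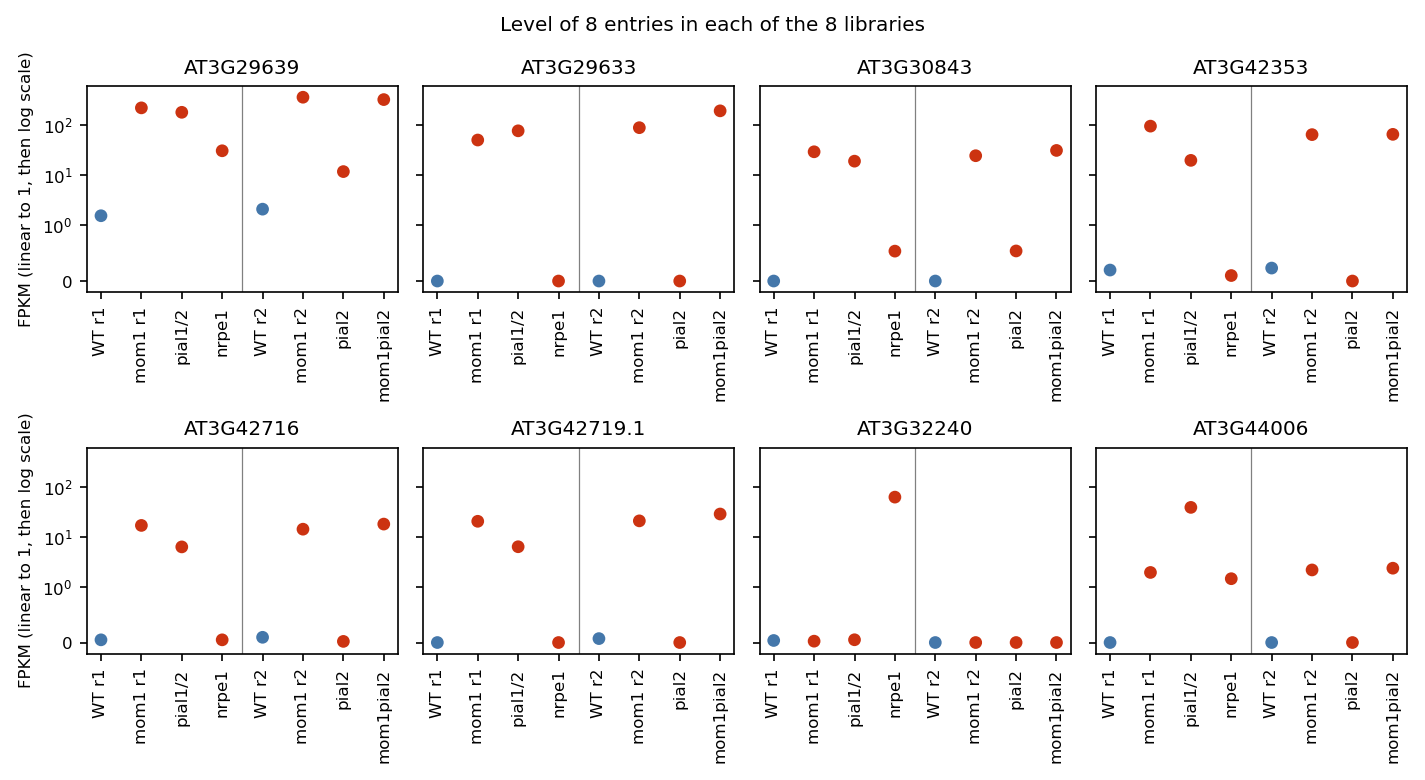
FPKM of 8 entries (1 panel each) in each of the 8 libraries, 1 point a library, WT in blue and mutants in red, with the libraries of each WT replicate on either side of the grey line; the axis is linear up to 1 and logarithmic above. The first 6 panels are the entries that rose in mom1, where WT, nrpe1 and pial2 lie low except for AT3G29639, and the last 2 are AT3G32240, at 61.5 FPKM in nrpe1, and AT3G44006, at 38.4 FPKM in pial1/2.

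With 1 library against 1, the mom1 replicate 1 table had 31 entries of the window 2-fold higher and 2 lower, or 2.05% and 0.132% of the 1514, where 0.627% and 0.372% of all entries were. The mom1 replicate 2 table had 24 higher and 5 lower, 1.59% and 0.330%, beside 0.686% and 0.58% of all entries. Of the higher entries, 18 of 31 and 9 of 24 were listed at 0 in WT. There were 20 entries higher in both, 64.5% of the replicate 1 list and 83.3% of the replicate 2 list, and 0 were lower in both. The 20 comprise 14 pseudogenes and 5 protein-coding genes, and 19 of the 20 were under 1 FPKM in both WT libraries, the exception being AT3G29639. The 1514 entries of the window hold 879 pseudogenes, 88 transcribed pseudogenes and 499 protein-coding genes, and 244 reached 1 FPKM in either WT library. These counts are therefore not read as traits of the 20.

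Higher entries of the other mutants were counted in the same way. The library labelled pial1/2 had 20 higher and 1 lower (0.495% and 0.316% of all entries), and mom1pial2 had 24 higher and 4 lower (0.63% and 0.504%). The nrpe1 library had 11 higher and 3 lower (0.539% and 0.296%), and pial2 had 5 higher and 4 lower (0.428% and 0.492%). As shares of the window, 1.32% were higher in pial1/2, 1.59% in mom1pial2, 0.727% in nrpe1 and 0.330% in pial2, beside the shares of all entries given above. For pial2 the counts depended on the setting, with 11 higher at a pseudocount of 0.1 FPKM and 7 lower by the authors' q below 0.05. In these 4 comparisons there is no replicate check.

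Between tables with no library in common, 20 entries were higher in both mom1 replicate 1 and mom1pial2, 64.5% and 83.3% of the lists. Of the mom1 replicate 2 list, 14 were also higher in pial1/2, 58.3% and 70.0% of the lists, and 4 in nrpe1, 16.7% and 36.4%. The pial1/2 and mom1pial2 lists shared 15, 75% and 62.5% of them. For mom1 replicate 1 and pial2 there were 2, AT3G29639 and AT3G42090.1, 6.45% and 40.0% of the lists. Overlaps over all entries were not counted, here or for the 2 mom1 tables, so these shares are not read as a trait of the window.

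**Figure D2:**
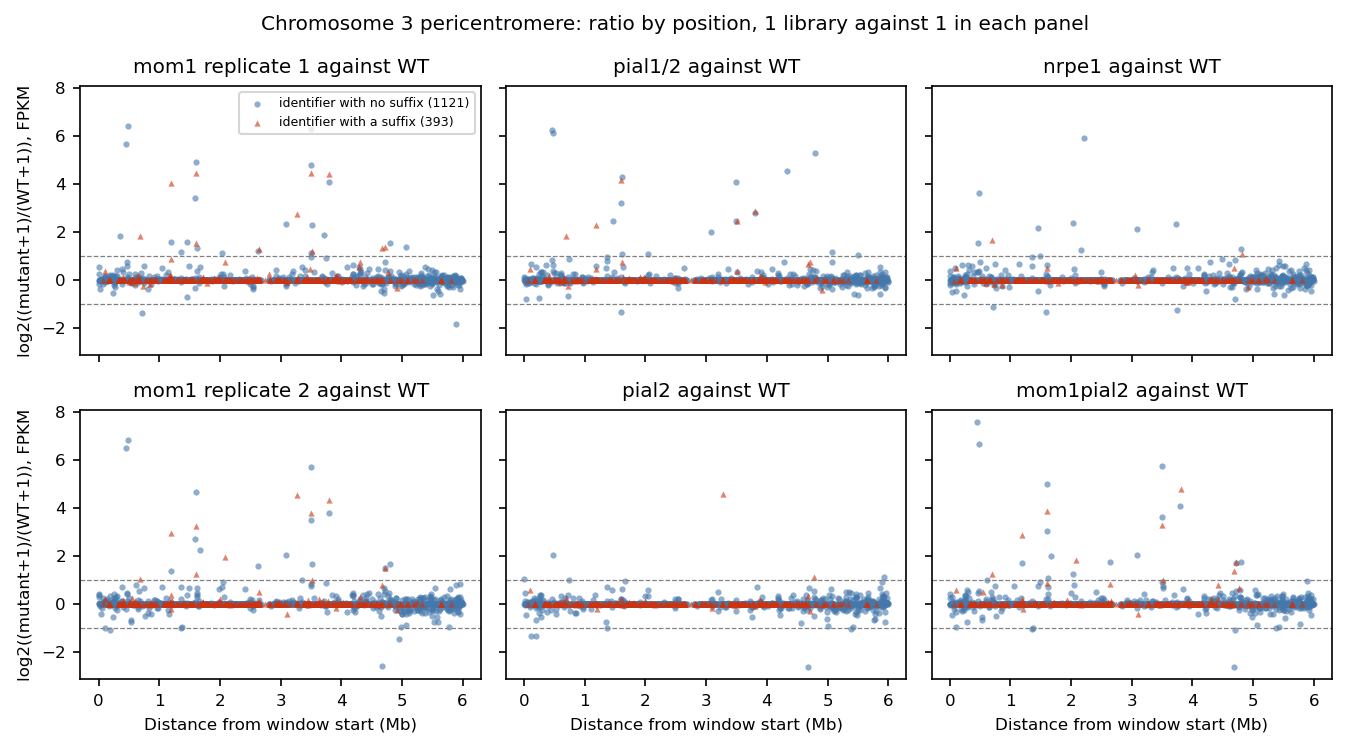
Log2((mutant + 1)/(WT + 1)) of FPKM against distance from the start of the window in Mb, 1 panel a table and 1 point an entry, blue circles for the 1121 identifiers without a suffix and red triangles for the 393 with one; dashed lines mark 2-fold. Points above the upper line number 31 and 24 in the mom1 panels, 20 in pial1/2, 24 in mom1pial2, 11 in nrpe1 and 5 in pial2.

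The 20 entries 2-fold higher in both mom1 tables were followed across the other libraries. Their choice fixes the mom1 values, so none of this is tested. In mom1pial2, 17 of the 20 were 2-fold higher, with a median log2 ratio of 2.95, and the mom1pial2 level was above both mom1 libraries at 8 entries, between them at 7 and below both at 5. In pial1/2, 14 of the 20 were higher, with a median of 2.48, and the level lay below both mom1 libraries at 14. In nrpe1 4 of the 20 and in pial2 2 of the 20 were higher, and 16 and 18 were under 1 FPKM there. Levels set across tables were normalized separately, with the same WT library differing between tables by factors from 0.995 to 1.0196.

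The 4 higher in nrpe1 were AT3G29639, AT3G29784.1, AT3G33528 and AT3G44006. AT3G33528, which codes an uncharacterized protein, was at 0.446 FPKM in WT replicate 1 and at 6.27, 4.83 and 5.30 in mom1 replicate 1, pial1/2 and nrpe1. In the other set it was at 0.348 in WT replicate 2 and at 4.49, 0.499 and 4.60 in mom1 replicate 2, pial2 and mom1pial2. It was thus near 5 FPKM in every mutant library but pial2, although limma gave an adjusted p of 0.0675 in mom1. AT3G29784.1, a pseudogene, lay at 2.80, 2.88 and 2.45 FPKM in mom1 replicate 1, pial1/2 and nrpe1 and at 1.15, 0.217 and 1.48 in mom1 replicate 2, pial2 and mom1pial2, with WT at 0.0690 and 0.0403. AT3G42090.1, a pseudogene, was at 5.84 and 22.5 FPKM in mom1 replicates 1 and 2 and 22.8 in pial2, and was listed at 0 in both WT libraries, pial1/2, nrpe1 and mom1pial2. It shares its interval with AT3G42090, which was listed at 0 in mom1 and pial2, so the split between the identifiers is the authors' estimate. In the authors' deposited tables the q-values of AT3G42090.1 were 0.778 or more where it was tested.

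**Figure D3:**
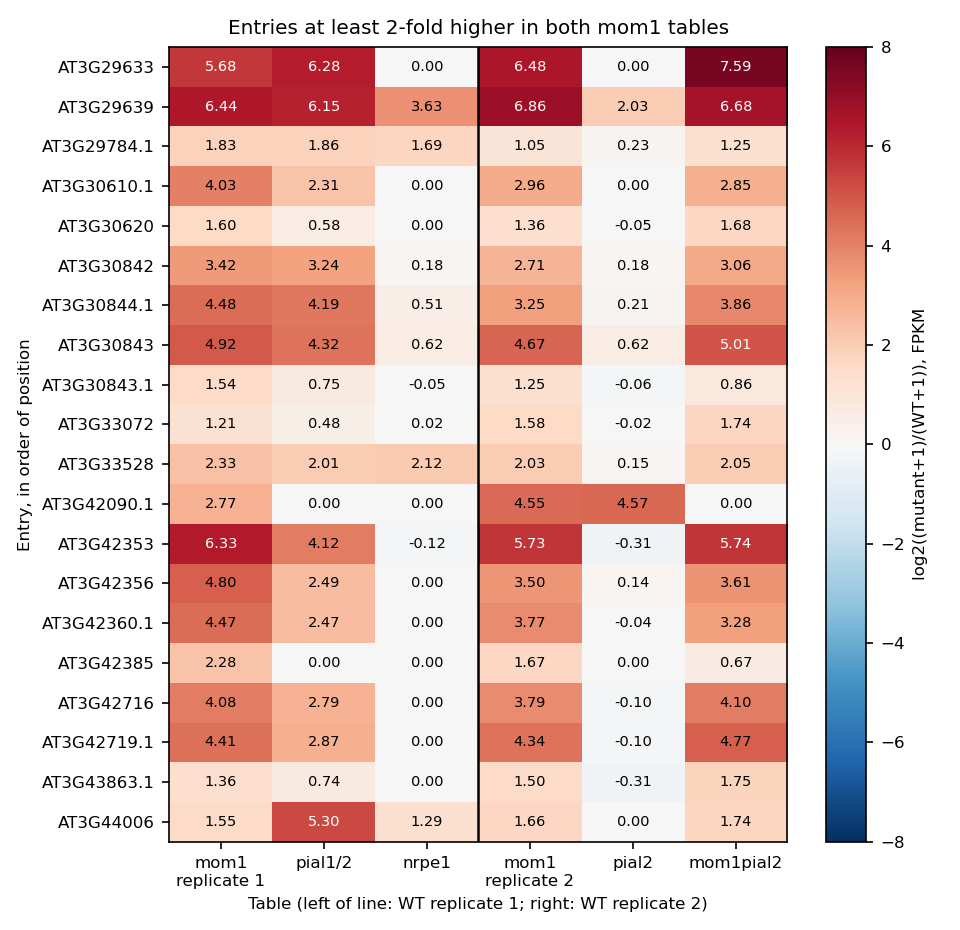
Log2((mutant + 1)/(WT + 1)) of FPKM of the 20 entries 2-fold higher in both mom1 tables, in order of position (rows) and by table (columns), with the value printed in each cell and red for higher than WT; the black line separates the tables of WT replicate 1 from those of WT replicate 2. The nrpe1 and pial2 columns are 2-fold higher at 4 and 2 entries, with AT3G30843 next at 0.62 in both, and the mom1pial2 column is 2-fold higher at 17.

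By position, these 20 entries fell into 12 clusters when entries less than 20 kb apart were joined, and 4 clusters of 2 or more held 12 of them. The cluster at 12593959 to 12608250 held ABCG38, which codes an ABC transporter of the pleiotropic drug resistance class, and the pseudogene entries AT3G30844.1, AT3G30843 and AT3G30843.1. ABCG38 lay at 0.111 FPKM in WT replicate 1 and 10.8, 9.46 and 0.256 in mom1 replicate 1, pial1/2 and nrpe1, and at 0.0321 in WT replicate 2 and 5.73, 0.173 and 7.59 in mom1 replicate 2, pial2 and mom1pial2. Like AT3G30843 and AT3G30844.1 beside it, it was 2-fold higher in the mom1, pial1/2 and mom1pial2 tables, while AT3G30843.1 was so in the mom1 tables only. Its adjusted p in limma was 0.111. The cluster at 14497056 to 14509760 held AT3G42353, AT3G42356, AT3G42360.1 and AT3G42385. AT3G42356 was at 26.8 and 10.9 FPKM in mom1 replicates 1 and 2 and AT3G42360.1 at 21.7 and 13.1, against at most 0.0485 in WT.

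Entries near some of these clusters that were already transcribed in WT were close to their WT level. No such entry lay within 20 kb of the clusters that hold AT3G30610.1, AT3G33072, AT3G42090.1, AT3G42353 and AT3G42716. Of the 215 other entries at 1 FPKM or more in both WT libraries, 10 lay within 20 kb of one of the 20, and 0 of the 10 were 2-fold from WT in either mom1 table. Their mean log2 ratios in mom1 lay between -0.11 and 0.25 with a median of 0.10, and the median of the other 205 was 0.00110. ARP6, which codes a subunit of the chromatin remodeller SWR1, lies 952 bases from the interval of AT3G33528 and was at 19.99 FPKM in WT replicate 1 and 17.6 in mom1 replicate 1, and at 17.1 and 18.2 in the second pair. AT3G30841, 432 bases from the interval of a higher entry, had a mean log2 ratio of 0.07 ± 0.01 (SD, n = 2). Among all 216 entries at 1 FPKM or more in both WT libraries, 2 were 2-fold higher and 2 lower in mom1 replicate 1. In replicate 2, 1 was higher and 3 were lower. The 0 of 10 is near that share, so it is no result about the neighbours. Entries 2-fold higher in both mom1 tables were left out of the 10 by construction.

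Across the window, the share of entries 2-fold higher in mom1 was greatest in the bins from 12 to 13 Mb and 14 to 15 Mb. The 6 bins from 11 to 17 Mb had 4, 9, 3, 11, 3 and 1 higher entries in mom1 replicate 1. In mom1 replicate 2 they had 3, 7, 2, 9, 3 and 0. In the bin from 12 to 13 Mb 0.749% of the 267 entries reached 1 FPKM in both WT libraries, and in that from 16 to 17 Mb 37.5% of 251 did. Suffix entries formed 34.8% of the former and 4.78% of the latter, so position, entry type and WT level varied together along the window and cannot be told apart by bin. In pial2 the bins from 12 to 14 Mb had 0 higher entries, and in nrpe1 each of the bins had 3 or fewer.

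**Figure D4:**
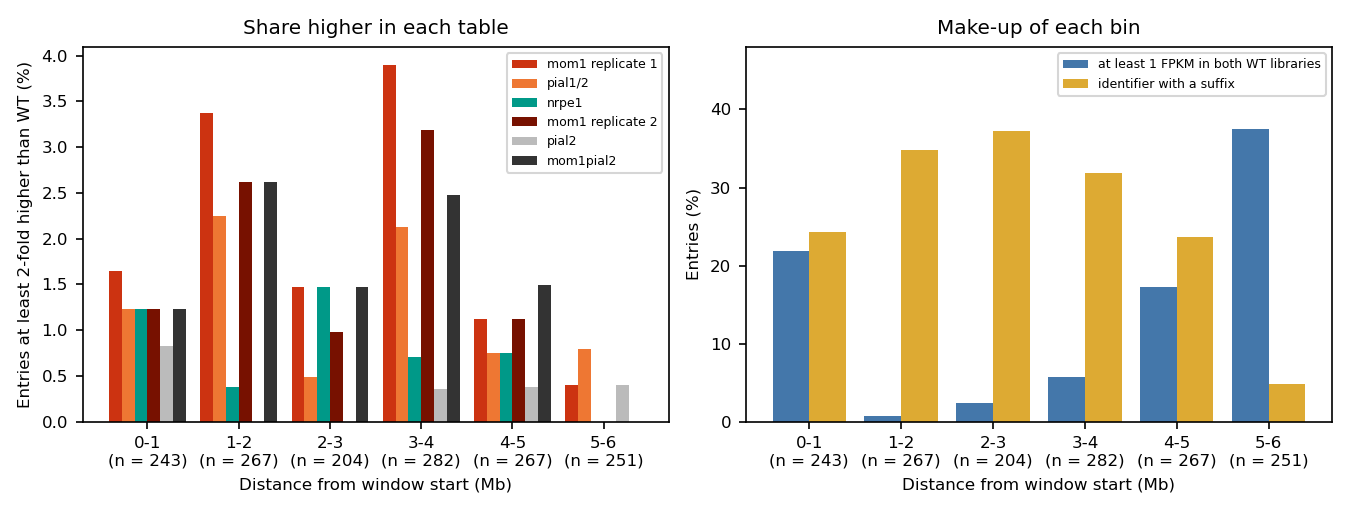
Left, share of entries at least 2-fold higher than WT in each table (bars by color) by distance from the start of the window in bins of 1 Mb; right, share of entries at 1 FPKM or more in both WT libraries (blue) and with a suffix (yellow) in the same bins, with the number of entries under each bin. The highest bars on the left, 3.90% and 3.37% in mom1 replicate 1, stand in bins where 5.67% and 0.749% of entries reached 1 FPKM in WT.

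By entry type, suffix entries were higher in mom1 more often per entry, at 2.80% of 393 in replicate 1 and 2.29% in replicate 2, against 1.78% and 1.34% of 1121 without a suffix. Over all chromosomes the shares were 1.67% and 1.42% of 1973 suffix entries and 0.563% and 0.641% of the others. In pial1/2 the window's shares were 1.27% with a suffix and 1.34% without, in mom1pial2 2.29% and 1.34%, in nrpe1 0.509% and 0.803% and in pial2 0.509% and 0.268%. The shares over all chromosomes were 0.710% and 0.482% in pial1/2 and 1.42% and 0.581% in mom1pial2. They were 0.304% and 0.553% in nrpe1 and 0.253% and 0.438% in pial2. The window's suffix shares in nrpe1 and pial2 rest on 2 entries each. Suffix entries of the window that were 2-fold lower numbered 0 in all 6 tables. Over all chromosomes 0 to 2 of the 1973 were lower in a table, so this count is no result about the window.

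The median log2 ratio of suffix entries at 1 FPKM or more in either library was 1.54 in mom1 replicate 1, 1.503 in replicate 2, 2.08 in pial1/2, 1.75 in mom1pial2, 0.85 in pial2 and 0.82 in nrpe1. These medians cover 4 to 13 entries, and 2 of them met the minimum in WT, so the rest had to be higher. Entries without a suffix had medians from -0.00442 in pial2 to 0.04 in mom1 replicate 2 over 232 to 255 entries, with quartiles of -0.08 and 0.15 in mom1 replicate 1. Among the 216 entries at 1 FPKM or more in both WT libraries, medians lay between -0.01 and 0.02 in the 6 tables.

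Within the group of related pseudogenes, 29 entries had an aligned stretch of at least 200 bases to AT3G42716, and 13 entries at 11 intervals were at least 80% identical over at least 1000 bases. The group was chosen after the values were seen, so it is described without a test. Of the 11 intervals, 4 were 2-fold higher in a mom1 table and 7 were not. AT3G30620 (85.5% identical to AT3G42716) was at 0 and 0.0368 FPKM in WT replicates 1 and 2 and at 2.03 and 1.66 in mom1, and AT3G33072 (85.2%) was at 0 and 0.0138 in WT and 1.32 and 2.03 in mom1. AT3G43862 (86.7%) was listed at 0 in WT and at 0.696 and 1.85 in mom1. These 3 copies were at 2.33, 2.39 and 2.29 FPKM in mom1pial2, under 0.5 in pial1/2 and at most 0.0180 in nrpe1 and pial2.

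The 7 other copies were 81.0% to 87.1% identical and none exceeded 0.525 FPKM in mom1, the value of AT3G32880 in replicate 2. AT3G42445.1, the most similar of all at 87.1%, was at 0.0175 and 0 FPKM in mom1, and 96.9% of its stretches of 50 bases occur once in the genome, a share close to the 97.4% of AT3G30620. AT3G32897 (81.0%, with 99.9% of such stretches unique) was at 0.0670 and 0 FPKM. Each of the 4 higher copies had another entry within 20 kb that was 2-fold higher in a mom1 table, namely AT3G42719.1, AT3G30610.1, AT3G33073.1 and AT3G43863.1, and none of the other 7 did. AT3G33073.1 was so in replicate 1 only, with log2 ratios of 1.31 and 0.486 in mom1 replicates 1 and 2. How often other entries of the window had such a neighbour was not counted, so this is not read as a trait of the copies. Where stretches repeat, as in AT3G43862 with 42.3% unique, the division of fragments between copies is uncertain.

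**Figure D5:**
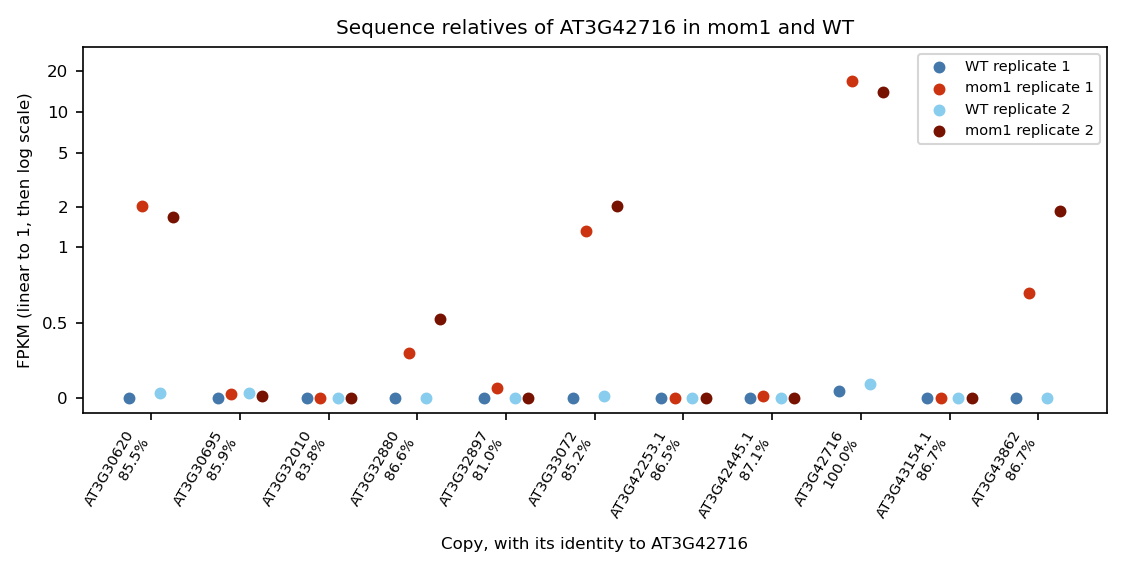
FPKM in the 2 WT libraries (blue shades) and the 2 mom1 libraries (red shades) of AT3G42716 and the 10 other intervals at least 80% identical to it over at least 1000 bases, in order of position with the identity under each name; the axis is linear up to 1 and logarithmic above. The 4 higher copies stand between 0.696 and 16.8 FPKM in mom1 and the 7 others at 0.525 or less.

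In nrpe1, 4 of the 11 higher entries were 2-fold higher in no other table. Across the 6 tables, 15 of the 45 entries of the window that were higher in any were so in only 1. The same counts over all entries were not made, so this is not read as a trait of the window. AT3G32240, a pseudogene at 13209736 to 13212216, was at 61.5 FPKM in nrpe1 against 0.0366 in its WT library, and at most 0.0496 in the other 7 libraries. All its stretches of 50 bases occur once in the genome, and no entry of the window had a higher ratio in nrpe1 (5.91 on the log2 scale). AT3G29635, of an acyltransferase family, was at 2.68 FPKM in nrpe1 against 0.260 in WT, and at 1.12 and 1.25 in mom1 replicate 1 and pial1/2. AT3G32195 and AT3G44045.1, both pseudogenes, were at 1.44 and 1.16 FPKM against 0.0122 and 0 in WT. AT3G32030, of the terpenoid cyclase superfamily, was at 1.14 FPKM in WT replicate 1 and 10.00 in nrpe1, 3.67 in mom1 replicate 1 and 3.49 in pial1/2, and at 1.40 in WT replicate 2 and 2.96, 2.63 and 4.82 in mom1 replicate 2, pial2 and mom1pial2, so all 6 mutant libraries lay above both WT libraries.

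SADHU3-2, a non-coding retrotransposon entry, was higher than WT in mom1 and lower in nrpe1. It was at 1.57 FPKM in WT replicate 1 and at 3.91 in mom1 replicate 1, 1.55 in pial1/2 and 0.0804 in nrpe1, and at 3.62 in WT replicate 2 and 7.43, 2.22 and 3.89 in mom1 replicate 2, pial2 and mom1pial2. Its mean log2 ratio in mom1 was 0.90 ± 0.05 (SD, n = 2; limma adjusted p = 0.231), and its ratio in nrpe1 was -1.25. The difference between mom1 and nrpe1 was not tested.

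In the library labelled pial1/2, AT3G44006, annotated as protein coding, stood out at 38.4 FPKM. It was listed at 0 in both WT libraries and pial2 and lay at 1.93, 1.45, 2.17 and 2.35 in mom1 replicate 1, nrpe1, mom1 replicate 2 and mom1pial2. Its interval is 180 bases long, and the pial1/2 value was 27.6 times the lowest above 0 among entries of like length, while the others were 1 to 2.12 times it. AT3G43402 was at 22.3 FPKM in pial1/2 and 0 elsewhere, in an interval of 93 bases, where 5 of 17 entries of like length were above 0 and its value was the lowest of them. AT3G30778, with 120 bases, was at 7.06 in WT replicate 1 and 23.5, 43.0 and 35.3 in mom1 replicate 1, pial1/2 and nrpe1, and listed at 0 in the other set. AT3G42628, with 138 bases, was at 3.998 FPKM in nrpe1 and 2.66 in mom1 replicate 1, and listed at 0 in the other libraries. These values were 1.06 and 1 times the lowest above 0 among entries of like length.

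In pial2, the 3 higher entries besides AT3G29639 and AT3G42090.1 were a calcium-binding EF-hand protein gene, AT3G29000 (1.77 FPKM in WT and 4.71 in pial2), the zinc finger gene ZAT7 (1.92 and 5.29) and AT3G43955.1. The last was at 1.2 FPKM and shares its interval with AT3G43955, which was at 3.41 in WT and 2.11 in pial2. None of the 3 was 2-fold higher in another table, and how often this held over all entries was not counted.

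Entries 2-fold lower in at least 1 table numbered 11, and the same count over all entries was not made. With a pseudocount of 1 FPKM, an entry under 1 FPKM in WT cannot be 2-fold lower. In the window 244 of the 1514 entries reached that level in either WT library. EXLA1, which codes an expansin-like protein of the cell wall, was at 74.0 FPKM in WT replicate 1 and 20.4 in mom1 replicate 1, but at 6.24 in WT replicate 2 and 7.28 in mom1 replicate 2, so the WT libraries differed more than mom1 and WT did. Its mean log2 ratio was -0.81 ± 1.42 (SD, n = 2), and its interval in the tables is the same as that of the histone gene HTB9. CAF1a, of the mRNA deadenylase complex, was at 45.1 FPKM in WT replicate 2 and 15.5 in mom1 replicate 2, and at 23.6 and 30.4 in the first pair. SDR4, a short-chain dehydrogenase gene, was at 28.3 and 12.7 in the second pair and 7.74 and 9.13 in the first, and at 10.8 in pial2.

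The remaining lower entries were below 8 FPKM in WT. AT3G29140 was at 6.28 FPKM in WT replicate 2 and 2.59, 1.88 and 2.81 in mom1 replicate 2, pial2 and mom1pial2, and GDU6, which codes a glutamine dumper protein, was at 7.03 and 2.93, 3.78 and 2.89. AT3G43829 was listed at 5.10 in WT replicate 2 and 0 elsewhere, in an interval of 147 bases. AT3G29798 was at 1.84 in WT replicate 1 and 0.102 in mom1 replicate 1 and 0.307 in nrpe1, AT3G30840 at 1.54 in WT replicate 1 and 0 in pial1/2 and nrpe1, and AT3G43840 at 1.13 in WT replicate 2 and 0 in mom1pial2. FAMT, which codes a farnesoic acid methyltransferase, was at 2.02 in WT replicate 2 and 0.440 in pial2 and 0.506 in mom1pial2. Each of these sets of lower values shares 1 WT library.

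Genes of known function in the window were described through 7 lists, and 0 of their 36 members were 2-fold from WT in any table, where 0.812% to 1.27% of all entries were in a table, so a count near 0 is no result about the lists. Of the 36, 32 were tested and 0 passed limma in mom1, and the median log2 ratio of the list members in mom1 lay within -0.31 to 0.02 by list, where the median of all entries tested was -0.00012. In the silencing and chromatin list (8 genes), mean log2 ratios in mom1 ran from -0.27 to 0.20. CHR38 (CLSY1), which brings RNA polymerase IV to chromatin, was at 4.25 FPKM in WT replicate 1 and 3.63 in mom1 replicate 1, and at 2.89 and 2.02 in the second pair. HDA3 (HDT1), a plant-type histone deacetylase gene, was at 69.8 and 75.5 and at 57.3 and 70.0. HIRA, which codes a histone chaperone, was at 5.66 and 5.24 and at 5.27 and 4.13.

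The 3 histone genes had mean log2 ratios in mom1 from -0.01 to 0.06, and the histone H4 gene AT3G45930 was at 44.8 and 47.3 FPKM in the first pair and 45.5 and 46.8 in the second. The 3 nitrilase genes, whose enzymes hydrolyse nitriles, ran from -0.60 to 0.05, and NIT2 was at 10.0 and 8.32 FPKM in the first pair and 30.3 and 15.1 in the second. The 4 genes of the RPP1 cluster, which code immune receptors, ran from -0.13, for AT3G44630 at 12.8 and 13.0 FPKM and at 18.6 and 15.1, to 0.13. Of the 7 genes in the NPF2 transporter cluster, 4 were tested, from -0.42 to -0.09, and AT3G45680 was at 2.46 and 2.78 in the first pair and 6.38 and 2.78 in the second. The fatty acyl reductase genes FAR4 and FAR5 had ratios of -0.08 and -0.08. The 8 genes of signalling, light and hormone responses ran from -0.38, for the brassinosteroid gene BR6OX2, to 0.14, and LOX2 of jasmonate synthesis was at 186 and 232 FPKM in the first pair and 173 and 101 in the second. In the authors' deposited tables, q-values for mom1 replicate 2 were 5.52e-05 for NIT2, 0.00104 for AT3G45680 and 0.000789 for LOX2, while for mom1 replicate 1 they were above 0.9. The pial2 and mom1pial2 tables share WT replicate 2 with mom1 replicate 2, and these genes were lower there too. Their log2 ratios in pial2 and mom1pial2 were -0.64 and -0.57 for NIT2, -0.66 and -0.84 for AT3G45680 and -0.28 and -0.61 for LOX2. For nrpe1 the authors' deposited table gives a q of 5.9e-05 for LOX2, at 186 FPKM in WT and 280 in nrpe1, and of 0.00982 for MPK3, at 86.8 and 115 FPKM.

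Compared with the other pericentromeric windows, the chromosome 3 share of 2-fold higher entries in mom1 replicate 1 was 2.05%, against 1.16%, 1.61%, 1.66% and 1.61% on chromosomes 1, 2, 4 and 5. In mom1 replicate 2 it was 1.59%, against 0.771%, 1.11%, 1.66% and 1.67%. Outside the 5 windows the shares were 0.363% and 0.479% of 26729 entries. The order of the windows thus differed between the replicates, and the difference of chromosome 3 from the others was not tested.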

How the data were processed

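The deposited tables give FPKM made by the authors, in 1 column for WT and 1 for the mutant, and the authors' p-value and q-value per entry, which are likewise deposited. The q-values equal a Benjamini-Hochberg adjustment over entries with status OK to within 4.69e-06. The submitters' processing notes name TopHat2 2.0.12, Bowtie, Cufflinks 2.2.1, Cuffdiff and the TAIR10 build. Read length, strand and read filters are not given in the sources used here.

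Levels were compared as log2((mutant + 1)/(WT + 1)) within a table, with a pseudocount of 1 FPKM. For mom1, a limma model (version 3.58.1, under R 4.3.3) with only a mean term and moderated variances took both ratios of the 20517 entries that reached 1 FPKM in at least 1 of 4 libraries. Its p-values were two-sided and adjusted by Benjamini-Hochberg at 0.05. The fit was also run on simulated normal values drawn with its own fitted variances. That run shares the assumptions of the fit, so it is no check on the calls. A ratio sets a mom1 library against the WT library of its own table and number, so the fit blocks on the replicate. Entries whose status was FAIL, LOWDATA or HIDATA in a mom1 table were left out of the fit, 1 of them in the window (AT3G31442). Other alternatives concerned the pseudocount, the minimum, centring and single libraries. Single-library mutants were described without a test.

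Named entries were all that passed limma, the 5 highest and 3 lowest 2-fold entries of each table and the listed genes. Clusters and sequence relatives, with the entries named through them, were chosen after values were seen. The members and lists were chosen with earlier results of these data known. Entries were matched by locus to RefSeq genes of TAIR10.1 (1480 of 1514), and 866 of 879 matched pseudogenes had the same start and end. Identity came from blastn 2.17.0. Python 3.11.15, numpy 2.4.6, pandas 2.3.3 and matplotlib 3.10.9 were used.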

Additional observations from a re-analysis of the deposited data

How the results depend on the processing

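The 6 calls in mom1 came from ratios within a table, which act as a replicate block. With no replicate block limma called 0 entries of the window higher, and with no filter on low values it also called 0. Over the alternatives the adjusted p by limma lay between 0.0143 and 0.238 for AT3G29633 and between 0.00601 and 0.183 for the other 5. With a pseudocount of 0.1 FPKM 5 were called, 3 of them shared with the 6, and with at least 5 FPKM 7, which added AT3G42360.1. Centred ratios called the same 6. Chosen after seeing the data, a variance trend on level called 7, and leaving out intervals under 200 bases called 5. Entries that fell numbered 0 in each of these. The mean ratio of the 6 kept its sign in all 53 other values. Entries well above WT in both mom1 tables keep their sign under any such filter, block or pseudocount, so this is no check on the calls. Without replicate 1 or replicate 2 no residual degrees of freedom remain, so 2-fold changes were counted, 24 to 31 higher and 2 to 5 lower.

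The 2-fold counts stayed within 1.5 times except in 3 cases. With a pseudocount of 0.1 FPKM pial2 had 11 higher entries and pial1/2 had 2 lower ones, and by the authors' q below 0.05 pial2 had 7 lower. The medians of suffix entries depended on the minimum and the pseudocount. With no filter they were 0.0375, 0.0518, 0.0244, 0.00911, 0.0292 and 0.00967 in mom1 replicates 1 and 2, pial1/2, pial2, mom1pial2 and nrpe1, and with a pseudocount of 0.1 FPKM 4.07, 3.46, 4.70, 2.26, 3.49 and 2.2. Without a suffix and with no filter, mom1 replicate 2 and mom1pial2 had medians of 0.0156 and 0.0162. The cause was not tested beyond the settings' own construction. The tables hold no counts, so what depth limits could not be set per entry.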
